A study of Mus musculus with 15 samples.

Results

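The 10 genes described here move ions, acid or amino acids across epithelia: Slc6a14, Slc26a3, Slc9a3, Scnn1a, Scnn1b, Scnn1g, Cftr, Car1, Car4 and Kcnn4. They are 10 of the 50600 genes in the tables, and all 10 passed the filter on low counts that left 19107 genes for testing. The filter asked for at least 0.56 CPM, before any TMM adjustment of library size, in 3 libraries; Slc26a3 and Slc9a3 met it in all 3 colon libraries and in only 2 of the others, so both were tested because of colon. Slc6a14 was picked from measured values, as a gene among the lowest in thymic epithelium against the other tissues, and the 9 others were put beside it by function. RNA came from epithelial cells that had been purified in a cell sorter; the mice were male C57BL/6J, aged 8 weeks, with no transgene or treatment in the labels. The 5 groups were cortical thymic epithelium (cTEC), medullary thymic epithelium (mTEC), and epithelium of skin, colon and lung. Each had 3 libraries, and each library was a pool from 5 mice, so an SD is the spread among 3 pools. The labels give no separate cell type within the colon, lung or skin sort.

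Epithelia that face a lumen absorb or secrete salt through matched proteins of the apical membrane, and water follows. The epithelial sodium channel (ENaC), built from the alpha, beta and gamma subunits encoded by Scnn1a, Scnn1b and Scnn1g, takes up sodium in the distal colon, in the airways and in the alveoli. Neutral salt absorption in the colon pairs the sodium-proton exchanger NHE3 (Slc9a3) with the chloride-bicarbonate exchanger DRA (Slc26a3), and carbonic anhydrases supply the protons and bicarbonate they trade. Chloride secretion runs through the channel CFTR, and the basolateral potassium channel KCa3.1 (Kcnn4) keeps its driving force. Slc6a14 encodes a transporter that carries neutral and cationic amino acids with sodium and chloride. Medullary thymic epithelium is known for low transcription of many genes of peripheral tissues, which serves the screening of developing T cells.

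The libraries held 12946533 to 41978665 reads in genes. Levels are in CPM, reads in genes divided by the TMM-adjusted library size, when 1 gene is followed across libraries. TPM, which is also per transcript length, is used when genes are set beside each other. Skin replicate 1 stood apart, with 46.9% of its reads outside the gene counts (24.2% to 36.1% in the other libraries) and a ratio of sense to opposite-strand reads of 8.43, the lowest of the 15. Skin replicate 3 had the most fibroblast message, with 7 marker genes summing to 7621 CPM against 3972 and 1262 CPM in skin replicates 1 and 2, and the lowest keratinocyte sum of the 3 (19203 CPM against 27948 and 36292 CPM). The labels were checked against marker genes: Psmb11 averaged 140 TPM in cTEC and 7.89 in mTEC, Aire 376 TPM in mTEC and 32.3 in cTEC, Krt10 7390 TPM in skin, Cdh17 264 TPM in colon and Ager 15174 TPM in lung. Libraries of cTEC, mTEC and skin came from 1 kit and those of colon and lung from another, so tissue and kit cannot be told apart when skin or thymus is set against colon or lung. In bulk RNA, fewer cells of a type and less RNA per cell cannot be told apart either.

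The windows of 4 genes are shown, chosen to cover the patterns of the results: Slc6a14 was high in both colon and lung, Slc26a3 and Cftr were highest in colon, and Scnn1g was highest in lung. Each is the 250 bases before the RefSeq start on GRCm38.p6, all on the plus strand, printed 5′ to 3′. Capitals mark matches to the motifs TATAAA (the core promoter box), GGGCGG (the GC box), TGACG (core of the cyclic AMP response element), AGATAA (for factors of the GATA family) and TTTATG (for CDX factors), searched on both strands.
Slc6a14: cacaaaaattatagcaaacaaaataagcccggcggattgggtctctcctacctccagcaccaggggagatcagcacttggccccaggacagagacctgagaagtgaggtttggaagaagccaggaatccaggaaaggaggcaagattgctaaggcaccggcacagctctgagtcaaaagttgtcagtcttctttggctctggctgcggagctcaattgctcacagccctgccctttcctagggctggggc
Slc26a3: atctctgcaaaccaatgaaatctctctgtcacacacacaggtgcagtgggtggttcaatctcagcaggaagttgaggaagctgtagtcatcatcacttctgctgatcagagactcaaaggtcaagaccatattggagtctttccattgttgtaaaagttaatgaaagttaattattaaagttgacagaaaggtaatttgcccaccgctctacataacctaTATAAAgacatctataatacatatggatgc
Cftr: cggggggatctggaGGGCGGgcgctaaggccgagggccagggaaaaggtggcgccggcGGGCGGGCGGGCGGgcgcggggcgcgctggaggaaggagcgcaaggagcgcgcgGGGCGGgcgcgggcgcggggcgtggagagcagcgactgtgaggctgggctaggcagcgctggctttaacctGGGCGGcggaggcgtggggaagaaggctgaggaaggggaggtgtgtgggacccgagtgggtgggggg
Scnn1g: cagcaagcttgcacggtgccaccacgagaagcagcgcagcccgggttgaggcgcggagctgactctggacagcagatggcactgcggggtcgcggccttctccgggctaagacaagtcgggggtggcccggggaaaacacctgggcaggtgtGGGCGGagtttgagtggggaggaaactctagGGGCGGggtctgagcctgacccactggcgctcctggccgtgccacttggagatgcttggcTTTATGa

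The windows lie at chrX:21714650-21714899 for Slc6a14, chr12:31437969-31438218 for Slc26a3, chr6:18170437-18170686 for Cftr and chr7:121734229-121734478 for Scnn1g. The Slc26a3 window lies inside the GENCODE gene, whose annotated start is further upstream. The Slc26a3 window held a TATAAA starting 30 bases before the start, a motif present in 12.4% of 32851 RefSeq promoters of the same length, and its GC content was 38.8%. Cftr had a GC content of 76.4%, against a median of 52.4% over the promoters, and 6 matches to GGGCGG, which 32.7% of promoters hold at least once. Scnn1g carried 2 matches to GGGCGG and a TTTATG that starts 7 bases before the start (10.8% of promoters). None of the motifs was found in the Slc6a14 window. TGACG stood in 17.8% and AGATAA in 9.99% of all promoters and in none of the 8 member promoters that the RefSeq table holds. These matches describe letters only, not binding.

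**Figure D1:**
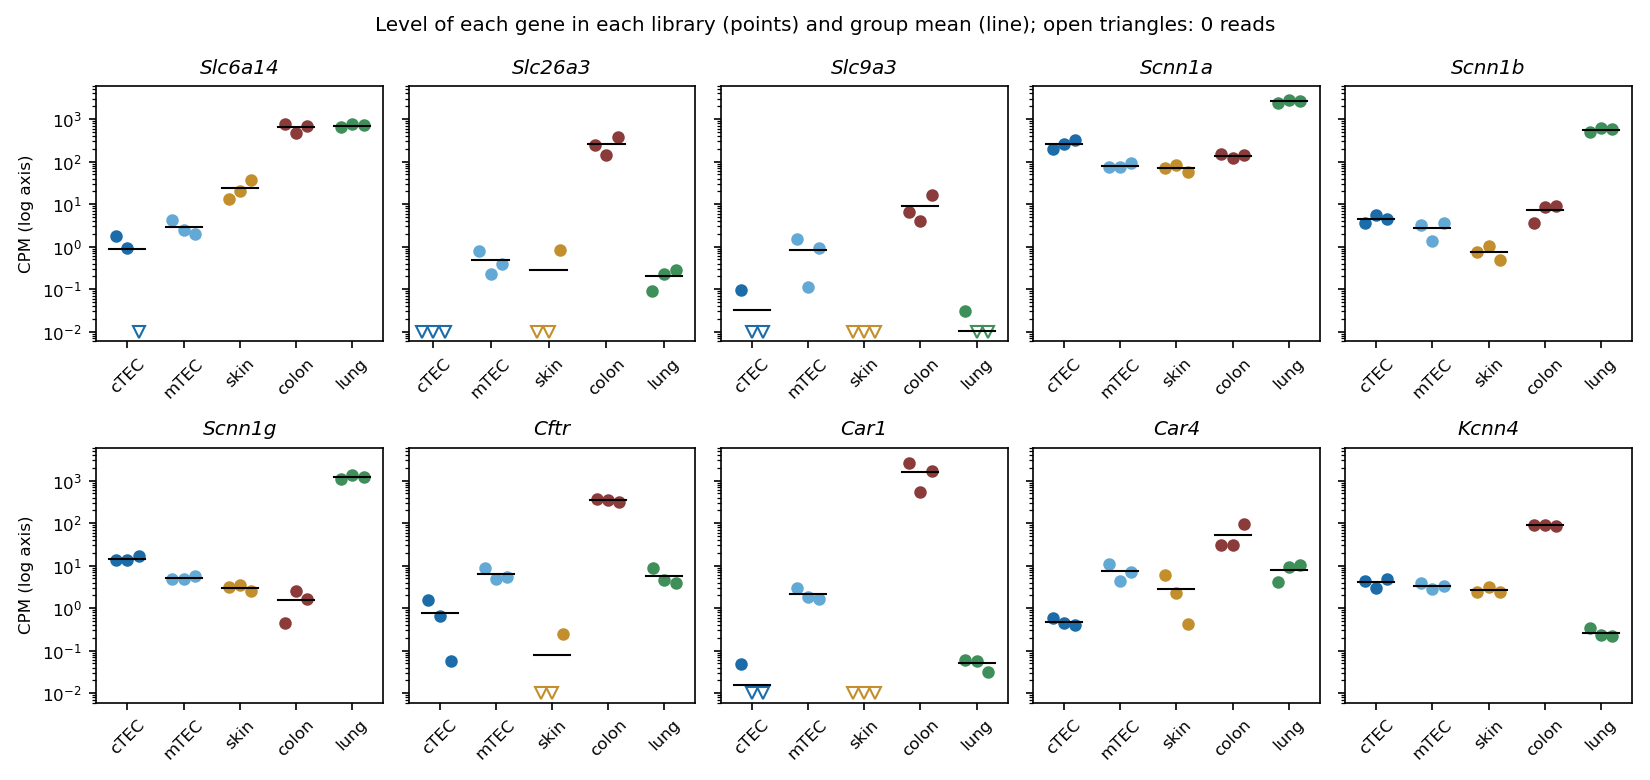
CPM of each of the 10 genes in each of the 15 libraries (filled points, log axis), with the mean of 3 pools as a line and libraries without a read as open triangles at the bottom. Slc26a3, Slc9a3, Cftr, Car1, Car4 and Kcnn4 are highest in the 3 colon libraries, the 3 ENaC subunits are highest in lung, and Slc6a14 is high in both.

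Slc6a14 was high in colon and lung and low in thymic epithelium. It stood at 770, 473 and 674 CPM in colon replicates 1 to 3 and at 640, 751 and 719 CPM in lung. Skin held 13.1, 20.1 and 37.2 CPM, mTEC 4.32, 2.46 and 2.0 CPM, and cTEC 1.76, 0.95 and 0 CPM. The libraries of colon and lung overlapped, and each further step down, to skin, to mTEC and to cTEC, was without overlap. The gene is protein-coding (ENSMUSG00000031089.7) and lies on chromosome X from 21714896 to 21742355, plus strand, on GRCm38, the build of all gene positions given here. An rRNA gene on the same strand, Gm25553, shares 79 bases with it.

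Per length, Slc6a14 averaged 217 ± 44.9 TPM (SD, n = 3) in colon and 284 ± 34.4 TPM in lung. That placed it at rank 517 in colon and rank 450 in lung among 21764 protein-coding genes. Among 21 genes of amino acid and peptide transport it made up 20.4% to 30.7% of the summed TPM in colon and 21.7% to 24.5% in lung. In colon the next largest mean shares were those of Slc38a2, a neutral amino acid transporter (14.5% to 20.6%), and the glutamine transporter Slc1a5 (15.6% to 17.1%). In lung, Slc3a2, the heavy chain shared by several amino acid exchangers, took a like share (21.1% to 23.6%). In the thymic groups Slc3a2 led the same genes, at 40.6% to 47.5% in cTEC and 40.1% to 43.4% in mTEC, where Slc6a14 averaged 0.463 and 1.5 TPM.

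The contrast that chose Slc6a14 is given as a description. The mean of the 2 thymic groups lay 133-fold below the mean of the 3 extrathymic groups (log2 −7.05 ± 0.45, SE), the fourth lowest of 19107 genes. Among genes with at least 10 CPM outside the thymus and at least 10 thymic reads, Akr1c14 (log2 −7.95) was just lower and Nipal1 (log2 −6.90) just higher. By tissue, thymic epithelium stood at log2 −3.83 ± 0.45 against skin, −8.59 ± 0.49 against colon and −8.73 ± 0.50 against lung. The first of these lies within 1 kit, and the 2 others cross kits. Over the 15 libraries, which fall into 5 groups, the genes closest to Slc6a14 in log2 CPM among 12095 compared were Slc1a1 (Pearson r = 0.99), Eif1ax (0.98) and Sptlc2 (0.98).

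Lung and colon, which share a kit, did not differ detectably in Slc6a14: lung stood at 1.10 times the level of colon, with a 95% interval of 0.549 to 2.20 (edgeR quasi-likelihood test, log2 0.14 ± 0.47, adjusted p = 0.832). Skin was lower than colon by 27.1-fold (log2 −4.76 ± 0.55, adjusted p = 3.63e-06) and lower than lung by 29.8-fold (log2 −4.90 ± 0.56, adjusted p = 2.68e-06). The mean in mTEC was 2.93 ± 1.23 CPM and that in cTEC 0.903 ± 0.881 CPM, a log2 difference of 1.64 ± 0.63 that did not pass (adjusted p = 0.0723). It passed without cTEC replicate 1 (log2 2.61, adjusted p = 0.0278), with DESeq2 (adjusted p = 0.0194) and without the filter on low counts (adjusted p = 0.0225). Leaving out other libraries brought the log2 difference as low as 1.08 and the adjusted p as high as 0.269. With a block for the replicate number the adjusted p was 0.0931.

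The exchangers of neutral salt absorption were highest in colon. Slc26a3, the chloride-bicarbonate exchanger, stood at 245, 143 and 372 CPM in colon. Lung had 0.092, 0.231 and 0.279 CPM, mTEC 0.804, 0.223 and 0.390 CPM, skin 0, 0 and 0.849 CPM, and cTEC no read in any library. Colon lay far above every other library, while mTEC overlapped with skin, and skin with lung. The 3 reads that serve as a floor over a group correspond to 0.0528 CPM in cTEC. Slc26a3 lies on chromosome 12 from 31390871 to 31473917, plus strand, and shares 1221 bases with a pseudogene on the same strand, Gm9359.

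Slc9a3, the sodium-proton exchanger, was far less abundant. Its colon libraries held 6.49, 4.0 and 15.97 CPM, or 3.96 ± 2.69 TPM (SD, n = 3), against 124 ± 53.9 TPM for Slc26a3 in the same libraries. In mTEC it stood at 1.51, 0.112 and 0.911 CPM. A total of 2 reads was found in cTEC, 1 in lung and none in skin. Colon replicate 3 was the highest of the 3 for both exchangers and colon replicate 2 the lowest. Slc9a3 lies on chromosome 13 from 74121457 to 74169442, plus strand.

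Between lung and colon, both exchangers were lower in lung. The difference was log2 −10.26 ± 0.70 for Slc26a3 (adjusted p = 6.72e-08). For Slc9a3 the ratio of summed reads, colon over lung, was 828 (95% exact counting interval 148 to 32765, adjusted p = 3.34e-05); without lung replicate 1, which held the only lung read, colon was at least 186-fold higher. Both were also lower in skin than in colon, Slc9a3 by at least 107-fold (adjusted p = 8.42e-05) and Slc26a3 by log2 −9.47 ± 0.71 (adjusted p = 1.66e-07). All 14 skin reads of Slc26a3 came from skin replicate 3, the library with the most fibroblast message, whose part in these reads was not tested, and without it the bound was at least 1773-fold. Leaving out colon replicate 3 moved the fitted value of Slc9a3 from −9.13 to −8.38 against lung and from −10.60 to −9.86 against skin. In both comparisons the exchangers had entered the test through colon, the higher group, so the filter favoured these calls. Their adjusted p-values thus add no support beyond the levels.

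Both exchangers were called higher in mTEC than in cTEC, on few reads. They were in the test through colon, a group outside this comparison, and a fit of the 2 thymic groups alone did not test either. Slc26a3 had 29 reads over the mTEC libraries and none in cTEC, which is at least 9.02-fold higher (adjusted p = 0.0368). Slc9a3 had 53 reads against 2, a ratio of summed reads of 24.7 (95% exact counting interval 6.52 to 210, adjusted p = 0.0196). The call for Slc26a3 was lost without cTEC replicate 1, 2 or 3 (adjusted p = 0.0759, 0.0829 and 0.0831), without mTEC replicate 1 (0.122) and without mTEC replicate 3 (0.0639). That for Slc9a3 was lost without cTEC replicate 2 (adjusted p = 0.0707), cTEC replicate 3 (0.0684) or mTEC replicate 1 (0.0797), and without cTEC replicate 1, which held both cTEC reads, mTEC was at least 10.4-fold higher (adjusted p = 0.0288).

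The 3 ENaC subunits were highest in lung. The alpha subunit gene Scnn1a stood at 2428, 2773 and 2616 CPM in lung, 198, 260 and 325 CPM in cTEC, 153, 122 and 140 CPM in colon, 73.1, 73.0 and 92.1 CPM in mTEC, and 71.1, 84.4 and 56.9 CPM in skin. All 15 libraries thus held this subunit, and only mTEC and skin overlapped among neighbours in that order. In lung its mean of 1025 ± 110 TPM ranked 90 among protein-coding genes. Scnn1a lies on chromosome 6 from 125320659 to 125344943, plus strand.

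The beta and gamma subunits stood apart in lung more widely than alpha did. Scnn1b stood at 495, 606 and 585 CPM in lung and between 0.485 and 9.05 CPM in the 12 other libraries. Scnn1g stood at 1116, 1380 and 1238 CPM in lung, at 13.3, 13.5 and 16.6 CPM in cTEC, at 4.78, 4.75 and 5.64 CPM in mTEC, at 3.11, 3.54 and 2.49 CPM in skin, and at 0.448, 2.47 and 1.65 CPM in colon. Colon was the lowest group for gamma but the second highest for beta, where its 3.67, 8.73 and 9.05 CPM overlapped with the 3.52, 5.57 and 4.48 CPM of cTEC. Scnn1g and Scnn1b lie near each other on chromosome 7, from 121734479 to 121768475 and from 121865038 to 121918514, both on the plus strand. Scnn1b shares 39152 bases with Cog7 on the opposite strand, so only reads on the sense strand were counted.

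**Figure D2:**
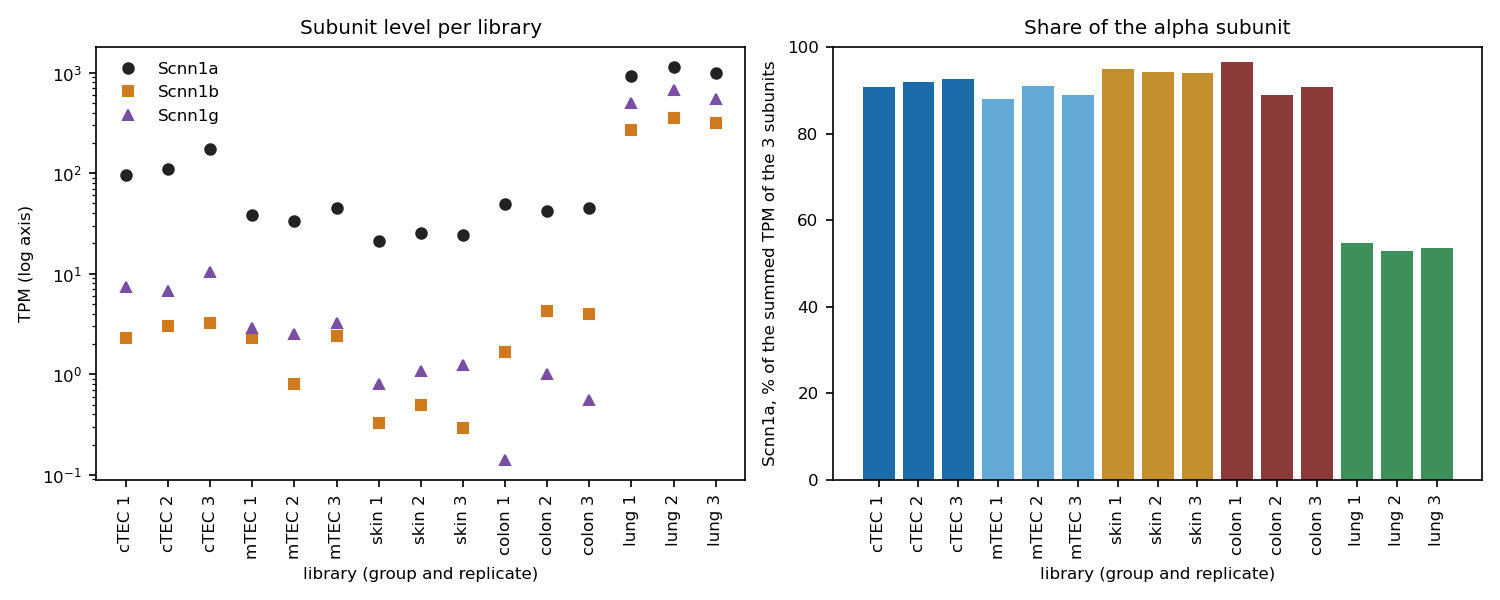
Left, TPM of Scnn1a, Scnn1b and Scnn1g in each library on a log axis; right, Scnn1a as a percentage of the summed TPM of the 3 subunits in each library. The share is 52.8% to 54.7% in lung and 88.0% to 96.4% in the 12 other libraries.

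Per length, the subunits came closer to each other in lung than anywhere else. Alpha made up 54.7%, 52.8% and 53.5% of their summed TPM in the lung libraries, and 88.0% to 96.4% in the others. The ratio of alpha to gamma was 1.72 to 1.86 in lung, 12.8 to 16.6 in cTEC, 13.1 to 14.1 in mTEC, 19.5 to 26.6 in skin and 41.9 to 351 in colon. Their sum was 1705 to 2171 TPM in lung, 105 to 187 TPM in cTEC, 36.6 to 50.9 TPM in mTEC, 47.5 to 51.0 TPM in colon and 22.4 to 27.1 TPM in skin. The widest spread, that of alpha over gamma in colon, rests on a gamma level of 0.57 ± 0.435 TPM.

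Against colon, lung was higher in alpha by 18.8-fold (log2 4.24 ± 0.23, adjusted p = 1.37e-09), in beta by 78.3-fold (log2 6.29 ± 0.39, adjusted p = 5.28e-09) and in gamma by 796-fold (log2 9.64 ± 0.43, adjusted p = 2.90e-10). Skin was lower than lung in all 3, by 36.8-fold, 755-fold and 412-fold. Against colon, skin was lower in alpha (log2 −0.97 ± 0.20, adjusted p = 0.000842) and beta (log2 −3.27 ± 0.45, adjusted p = 1.92e-05) and higher in gamma (log2 0.95 ± 0.38, adjusted p = 0.0418). The gamma difference did not pass without skin replicate 1 (log2 0.92, adjusted p = 0.0848), skin replicate 2 (0.81, adjusted p = 0.125), colon replicate 1 (0.52, adjusted p = 0.0787) or colon replicate 3 (0.98, adjusted p = 0.0769). It did not pass with RSEM's expected counts (adjusted p = 0.0992) or in a fit of these 2 groups alone (adjusted p = 0.193) either.

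Within the thymus, cTEC held more ENaC message than mTEC. Scnn1a was lower in mTEC by 3.28-fold (log2 −1.72 ± 0.21, adjusted p = 9.33e-05) and Scnn1g by 2.86-fold (log2 −1.52 ± 0.32, adjusted p = 0.00408), each without overlap of the libraries. Scnn1b stood at 2.70 ± 1.2 CPM in mTEC and 4.52 ± 1.03 CPM in cTEC, a log2 difference of −0.72 ± 0.36 that did not pass (adjusted p = 0.163).

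Cftr was highest in colon, with a low level in mTEC and lung. It stood at 365, 355 and 309 CPM in colon, 8.80, 4.80 and 5.34 CPM in mTEC, 8.83, 4.57 and 3.99 CPM in lung, 1.57, 0.669 and 0.056 CPM in cTEC, and 0, 0 and 0.243 CPM in skin. The libraries of mTEC and lung overlapped, as did those of cTEC and skin. Its colon mean was 63.7 ± 6.69 TPM. The gene lies on chromosome 6 from 18170687 to 18322768, plus strand, and an antisense gene, Gm15592, overlaps it. A pseudogene on the same strand, Gm15595, shares 961 bases with it.

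Lung was lower than colon in Cftr by 59.2-fold (log2 −5.89 ± 0.51, adjusted p = 1.61e-07). Skin was lower than colon by log2 −11.63 ± 0.77 (adjusted p = 1.21e-08) and lower than lung by log2 −5.74 ± 0.84 (adjusted p = 3.42e-05). All 4 skin reads came from skin replicate 3, and without it skin was lower by at least 2518-fold and at least 42.2-fold. Cftr was 7.91-fold higher in mTEC than in cTEC (log2 2.98 ± 0.55, adjusted p = 0.0019), and the value was log2 4.10 without cTEC replicate 1 (adjusted p = 0.00114).

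Ionocytes, rare epithelial cells known for high CFTR, were followed through 6 marker genes. Their summed level was 5.69 to 15 CPM in mTEC with all 6 detected in each library, and 1.90 to 3.19 CPM in cTEC, where 1 library lacked Foxi1, the factor that specifies these cells, and Atp6v0d2. In lung the sum was 7.32 to 8.70 CPM, with Bsnd at 0 in all 3 libraries and Foxi1 at 0 in 1. In colon it was 0.133 to 0.223 CPM, with Foxi1 at 0 in all 3. The part of these cells in the mTEC difference was not tested.

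Kcnn4, the potassium channel, stood at 89.9, 91.5 and 84.5 CPM in colon, the narrowest spread relative to its mean among the 10 genes there. It had 4.43, 2.95 and 4.76 CPM in cTEC, 3.82, 2.85 and 3.30 CPM in mTEC, 2.35, 3.09 and 2.43 CPM in skin, and 0.338, 0.231 and 0.217 CPM in lung. Lung was the lowest group without overlap, and cTEC, mTEC and skin overlapped in turn. Lung lay 331-fold below colon (log2 −8.37 ± 0.28, adjusted p = 3.86e-11), and skin lay 33.8-fold below colon (log2 −5.08 ± 0.24, adjusted p = 4.49e-10). Skin was 9.81-fold above lung (log2 3.29 ± 0.27, adjusted p = 9.02e-08), the only gene of the 10 called higher there. The thymic groups did not differ detectably (log2 −0.28 ± 0.21, adjusted p = 0.352). The gene lies on chromosome 7 from 24370263 to 24386690, plus strand.

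The carbonic anhydrase Car1, a cytosolic enzyme that interconverts carbon dioxide and bicarbonate, was the most abundant of the 10 genes in colon. It stood at 2644, 540 and 1662 CPM there, or 1735 ± 1104 TPM (SD, n = 3), rank 47 among protein-coding genes, and the highest pool lay 4.89 times above the lowest. In mTEC it had 3.02, 1.79 and 1.61 CPM. Over their 3 libraries lung held 5 reads, cTEC 1 and skin none. Colon, mTEC and then the rest were without overlap. Car1 lies on chromosome 3 from 14766216 to 14808368, minus strand, and shares 219 bases with a pseudogene on the same strand, Gm16399.

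Car4, a carbonic anhydrase anchored to the outer face of the membrane, was also highest in colon, at 30.3, 30.2 and 95.9 CPM. It had 4.09, 9.05 and 10.6 CPM in lung, 10.8, 4.24 and 6.94 CPM in mTEC, 6.02, 2.21 and 0.425 CPM in skin, and 0.571, 0.446 and 0.392 CPM in cTEC. Lung, mTEC and skin overlapped in turn, and skin overlapped with cTEC. The gene lies on chromosome 11 from 84957786 to 84966044, plus strand. Car4 is also known as a marker of lung capillaries, so endothelial genes were summed beside it. The 10 endothelial markers reached 108, 224 and 202 CPM in lung replicates 1 to 3, 318, 114 and 105 CPM in skin, 26.0, 18.0 and 52.6 CPM in colon, 39.7 to 56.5 CPM in mTEC, and 26.5 to 43.1 CPM in cTEC. All 10 were detected in every lung, colon and cTEC library, while Emcn was at 0 in 1 mTEC library and Apln in 1 skin library. Skin replicate 1 had the highest endothelial sum (318 CPM) and 6.02 CPM of Car4, within the 4.09 to 10.6 CPM of lung. Colon, with the most Car4, had endothelial sums that overlapped with those of cTEC, which had the least Car4. Within groups the libraries ranked alike in Car4 and in the endothelial sum in skin, colon and mTEC, but not in cTEC or lung. The part of endothelium in the level of Car4 was not tested.

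**Figure D3:**
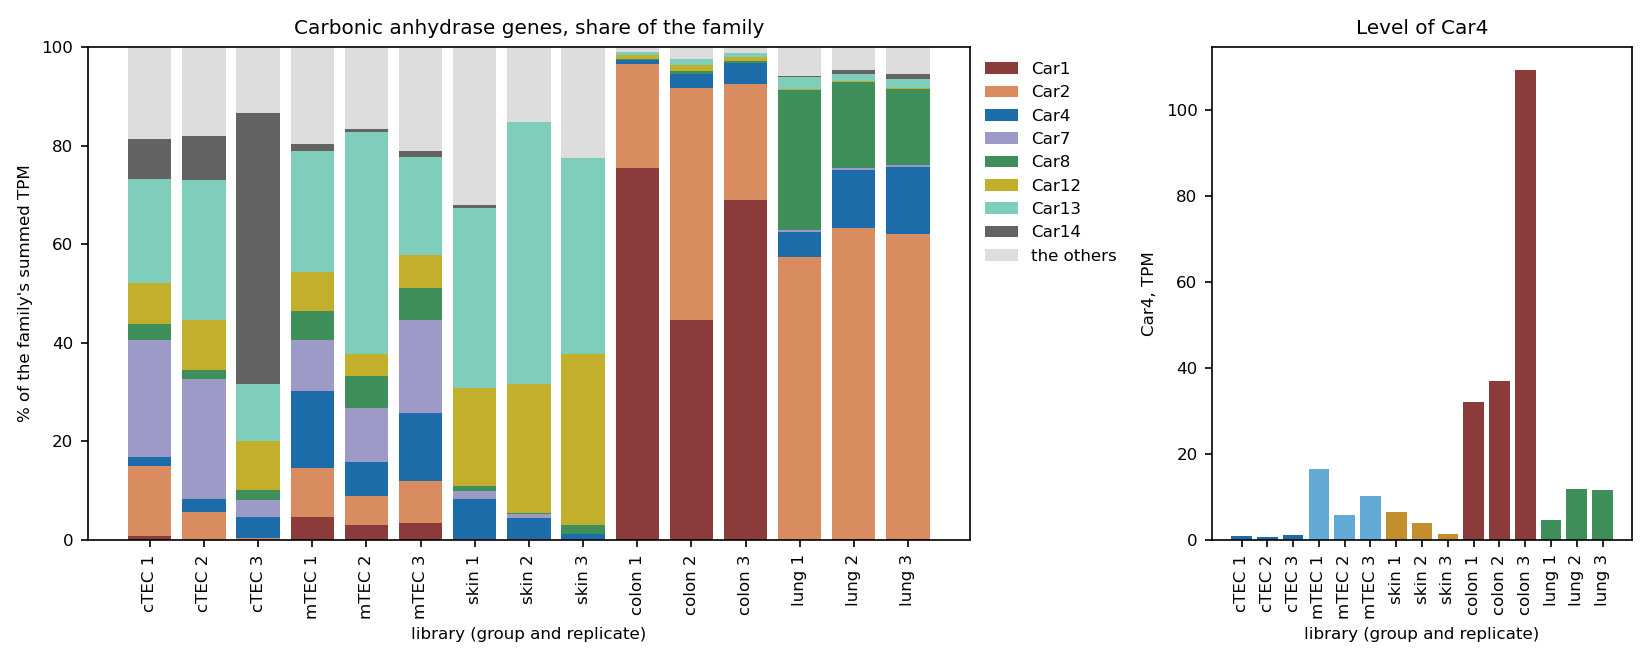
Left, the share of each named carbonic anhydrase gene in the summed TPM of 16 family members, per library; right, TPM of Car4 per library. Car1 takes 44.7% to 75.4% of the family in colon and Car2 57.5% to 63.1% in lung, and Car4 is highest in colon replicate 3.

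Within the family of 16 genes, the summed level was 1384 to 3745 TPM in colon and at most 118 TPM in any other library. In colon Car1 made up 44.7% to 75.4% and Car2, another cytosolic enzyme, 21.0% to 47.1%. Lung held Car2 at 57.5% to 63.1%, Car8, a relative without enzyme activity, at 15.5% to 28.4%, and Car4 at 5.02% to 13.6%. In skin Car13 led with 36.6% to 53.0%, and in mTEC Car13 also led on average, with 19.8% to 45.2%. Car4 made up 6.98% to 15.6% of the family in mTEC and 1.99% to 4.24% in cTEC.

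Both member enzymes were higher in mTEC than in cTEC. Car1 had 129 reads against 1, a ratio of summed reads of 120 (95% exact counting interval 21.2 to 4793, adjusted p = 0.0016). Without cTEC replicate 1, which held that read, mTEC was at least 25.3-fold higher (adjusted p = 0.00801). Car4 was 15.3-fold higher (log2 3.94 ± 0.81, adjusted p = 0.00343). Red cells also carry Car1: the 8 erythroid markers summed to 4.24 to 11.9 CPM in mTEC and 0.336 to 1.57 CPM in cTEC, where 1 library held only 1 of the 8. Their part in the difference was not tested. In colon that list summed to 2.73 to 5.59 CPM and in lung to 8.39 to 13.4 CPM, with Slc4a1 and Rhag at 0 in all 3 libraries of each. Skin had the highest erythroid sum, 63.5 to 123 CPM, and no Car1 read.

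Lung was lower than colon in Car1 (log2 −14.82 ± 0.80, adjusted p = 7.55e-09) and in Car4 by 6.57-fold (log2 −2.72 ± 0.66, adjusted p = 0.0026). Car4 moved to log2 −1.93 without colon replicate 3 (adjusted p = 0.0254). Skin was lower than colon in Car1 by at least 19280-fold (adjusted p = 1.33e-08) and in Car4 by 18.7-fold (log2 −4.22 ± 0.74, adjusted p = 0.00018). The last value was −5.40 without skin replicate 1 (adjusted p = 6.40e-05) and −3.44 without colon replicate 3 (adjusted p = 0.00107). Skin and lung did not differ detectably in Car4 (log2 −1.5 ± 0.69, adjusted p = 0.072), but did without skin replicate 1 (log2 −2.69, adjusted p = 0.00692) or lung replicate 1 (−1.84, adjusted p = 0.0428), with expected counts (−1.85, adjusted p = 0.0245) and without the filter on low counts (−1.54, adjusted p = 0.0305).

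**Figure D4:**
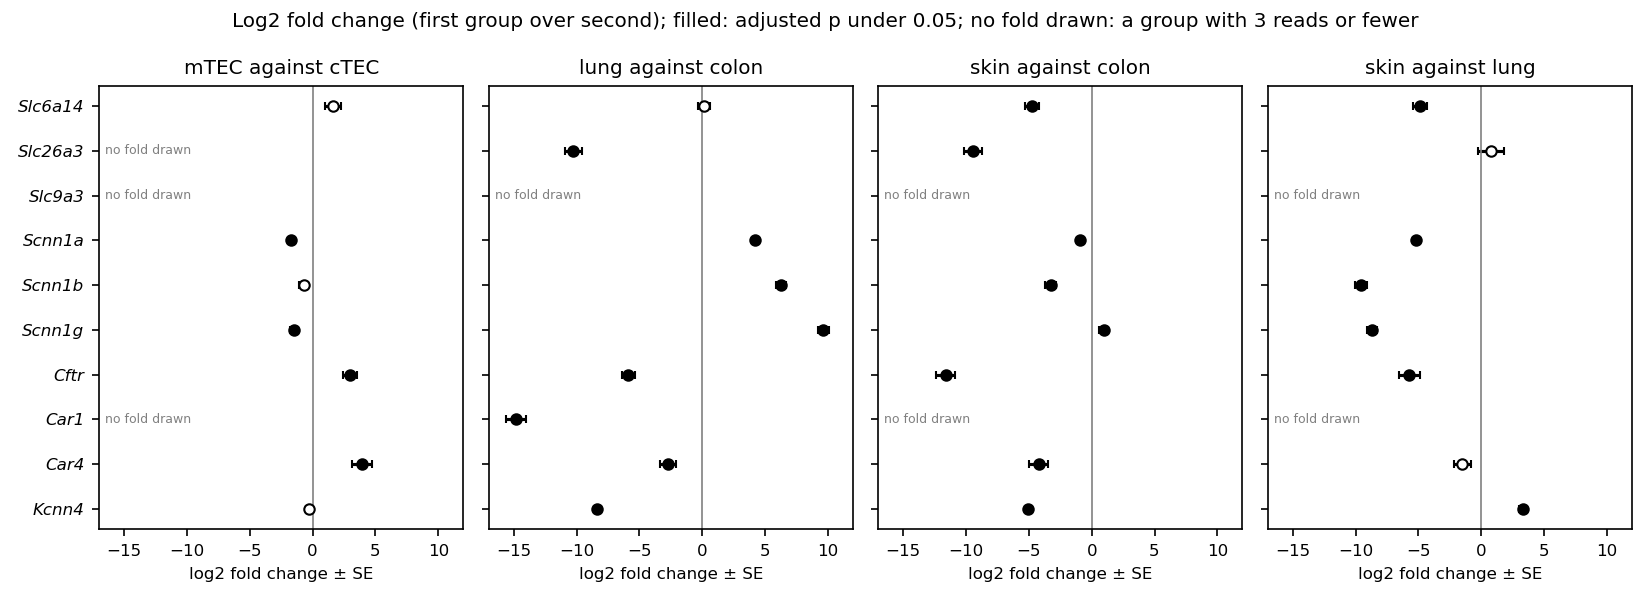
Log2 fold change ± SE of each gene in the 4 tested comparisons, first group over second; filled points have an adjusted p under 0.05, and no fold is drawn where a group had 3 reads or fewer. In mTEC against cTEC the points of Scnn1a and Scnn1g lie below 0 and those of Cftr and Car4 above it.

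Counted over the 10 genes, mTEC against cTEC gave 7 calls, against 24.7% of all genes tested. Of these, 5 were higher in mTEC (Slc26a3, Slc9a3, Cftr, Car1 and Car4; 15.2% of all genes) and 2 lower (Scnn1a and Scnn1g; 9.45%). The fit of the 2 thymic groups alone, which left out Slc26a3 and Slc9a3, gave 5 calls among 8 genes, 3 of them higher. That fit called 5659 of all 17231 genes it tested, 3159 of them higher. Leaving out 1 library gave 5 to 7 calls among the members and 2408 to 4207 among all genes. Lung against colon gave 9 calls, against 58.6% of all genes: 3 higher in lung, the ENaC subunits (30.4% of all genes), and 6 lower (28.3%), with Slc6a14 not called. All 10 were called in skin against colon (58.2% of all genes), 9 of them lower (30.8%) and Scnn1g higher (27.4%). The lower genes in both comparisons with colon include Slc26a3 and Slc9a3. These 2 entered the test through colon, the higher group, so the filter favoured their calls there. Skin against lung gave 6 calls (60.4% of all genes), with Slc6a14, the 3 ENaC subunits and Cftr lower (33.7%) and Kcnn4 higher (26.7%). Since most genes tested were called in the 3 comparisons between tissues, a call there sets no gene apart from the rest.

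Summed markers of several cell types also differed between mTEC and cTEC. Of the 15 marker lists, 9 had a summed level that was higher in mTEC than in cTEC without overlap of the libraries. A further 4 were lower without overlap (thymic epithelium, keratinocytes, T cells and thymocytes, and fibroblasts) and 2 overlapped. The share of all genes without overlap was not computed, so these counts set no list apart. By the test, a different measure, 15.2% of all genes were higher and 9.45% lower. The thymic epithelium list holds genes of both cortex and medulla, and its member Aire was higher in mTEC, as given above. Dcn made up most of the fibroblast sum (74.7 CPM in mTEC, 318 CPM in cTEC). Col1a1 (21.9 against 8.21 CPM) and Pdgfra (3.04 against 1.27 CPM) ran the other way, and the other fibroblast genes were lower in mTEC. The 8 colonocyte genes summed to 105 to 215 CPM in mTEC, with all 8 detected in each library, to 58.2 to 72.2 CPM in cTEC, with the intestinal factor Cdx2 at 0 in 1 library, and to 6974 to 8690 CPM in colon. The 6 goblet cell genes summed to 4262 to 7100 CPM in mTEC, 1262 to 1275 CPM in cTEC and 12393 to 19564 CPM in colon, and all 6 were detected in each of these libraries. In skin the same list summed to 437 to 1626 CPM, a range that takes in the cTEC sums, with Tff3 and Zg16 at 0 in all 3 libraries. The 8 myeloid genes, all detected in both thymic groups, summed to 133 to 221 CPM in mTEC and 68.8 to 81.2 CPM in cTEC. Lyz2 had the largest part (113 CPM in mTEC, 24.2 CPM in cTEC). Cd68 ran the other way (8.07 CPM in mTEC, 12.6 CPM in cTEC), and the other myeloid genes were higher in mTEC. The 5 mast cell genes summed to 34.6 to 54.4 CPM in mTEC, with Cpa3 at 0 in 1 library. In cTEC they summed to 7.24 to 17.9 CPM, with Cpa3, Mcpt4 and Cma1 at 0 in 2 libraries. Kit made up most of these sums (39.1 CPM in mTEC, 11.7 CPM in cTEC). Cpa3 was alike (0.0312 and 0.0317 CPM), and the other mast cell genes were higher in mTEC. The other lists that were higher were those of epithelium in general, lung alveoli, lung airway, ionocytes and red cells. The part of any of these cells in the mTEC values was not tested.

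Slc26a3, with 14 skin reads and 20 lung reads, did not differ detectably between skin and lung (log2 0.79 ± 1.02, adjusted p = 0.529), and Slc9a3 and Car1 had 5 or fewer reads in each of these groups. The median log2 fold change of the 10 genes was 2.31 in mTEC against cTEC and −4.30 in lung against colon, where the medians of all genes were 0.07 and 0.004. These medians take in genes with groups at 0, whose fitted values are no bounds.

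The proteins that act on ENaC were followed as 15 genes, all tested. In mTEC against cTEC 5 were higher and 5 lower (15.2% and 9.45% of all genes), with a median log2 fold change of −0.33 (0.07 over all genes). Tmprss4 and St14, membrane proteases that can cleave the channel, were higher by 5.38-fold (log2 2.43 ± 0.38, adjusted p = 0.000609) and 2.18-fold (adjusted p = 0.00148). Nr3c2, the mineralocorticoid receptor, was lower by 2.82-fold (adjusted p = 0.000658), and Nedd4l, the ubiquitin ligase that removes ENaC from the membrane, by 2.36-fold (adjusted p = 0.00014). In lung against colon 7 were higher and 7 lower (30.4% and 28.3% of all genes; median log2 −0.13, against 0.004). Hsd11b2, which shields the mineralocorticoid receptor from glucocorticoids, stood at 526 ± 51.0 CPM in colon and 0.765 ± 0.0389 CPM in lung (log2 −9.41 ± 0.54, adjusted p = 2.59e-09). The glucocorticoid receptor gene Nr3c1 was 2.76-fold higher in lung (adjusted p = 5.42e-07). Skin against lung gave 4 higher and 7 lower (26.7% and 33.7% of all genes; median log2 −1.01, against −0.15). Prss8, another channel-activating protease, was 14.6-fold lower in skin (adjusted p = 8.56e-10).

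**Figure D5:**
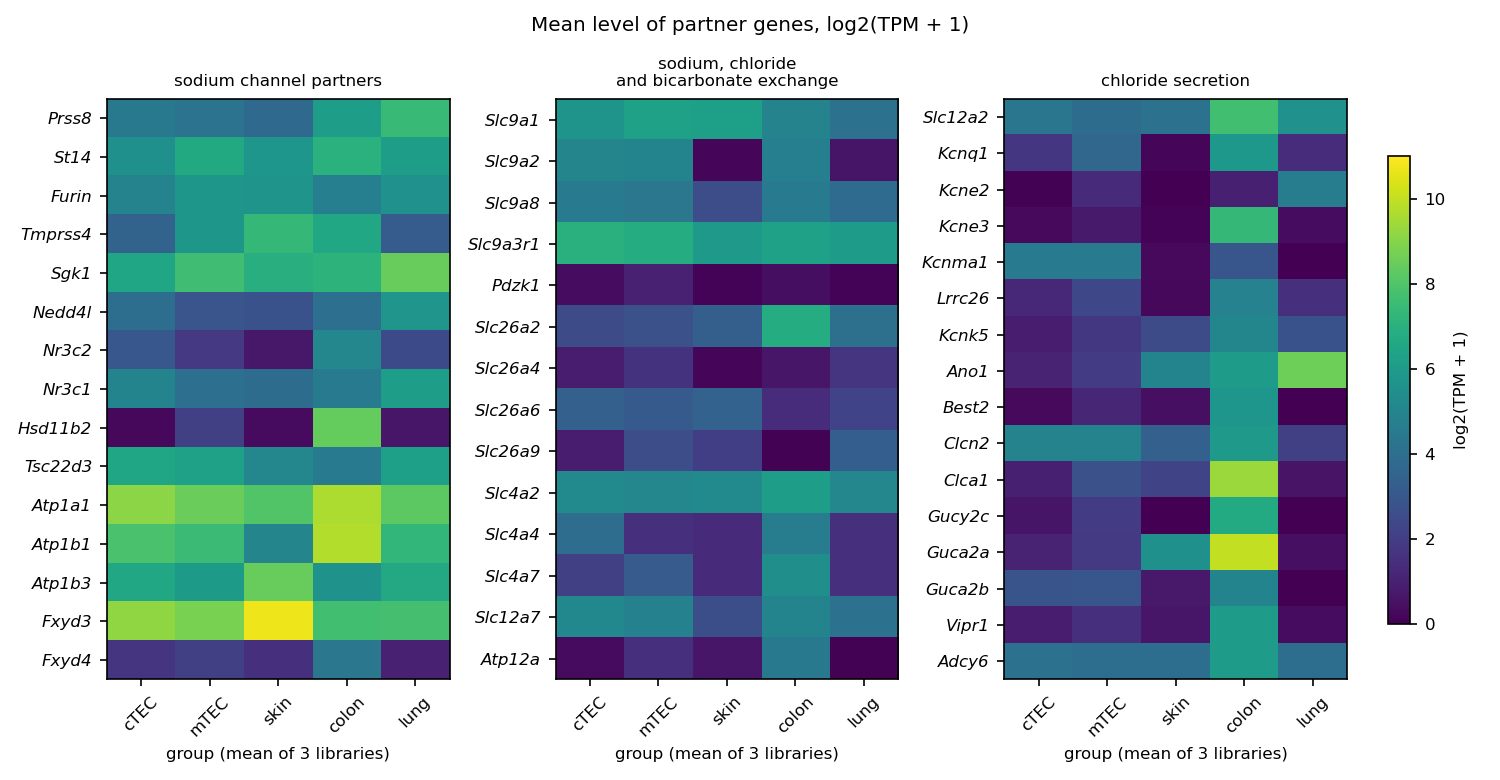
Mean level per group as log2(TPM + 1) for the partners of the sodium channel (15 genes), of sodium, chloride and bicarbonate exchange (14 genes) and of chloride secretion (16 genes). The colon column is the brightest for most genes of chloride secretion, with Ano1 and Kcne2 brightest in lung.

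The partners of chloride secretion, 16 genes, were mostly higher in colon. In lung against colon 14 were lower and 2 higher (28.3% and 30.4% of all genes), with a median log2 fold change of −6.92. In skin against colon 15 were lower and none higher (30.8% and 27.4% of all genes), with a median of −5.78 against −0.05 over all genes. Gucy2c, the receptor for guanylin, stood at 361 ± 43.1 CPM in colon and 0.0508 ± 0.0189 CPM in lung (log2 −12.66 ± 0.51, adjusted p = 1.31e-10). The 2 genes higher in lung were Ano1, a calcium-activated chloride channel (938 ± 70.1 CPM against 185 ± 24.9 CPM, adjusted p = 0.00025), and Kcne2, a potassium channel subunit (28.1 ± 8.55 CPM against 1.39 ± 0.395 CPM, adjusted p = 1.07e-05). In mTEC against cTEC 5 of the 16 were higher and 1 lower (15.2% and 9.45% of all genes; median log2 1.36). Gucy2c was 5.05-fold higher in mTEC (adjusted p = 0.000391), and Slc12a2, the cotransporter that loads chloride into the cell, 1.39-fold lower (adjusted p = 0.0364). The call of Slc12a2 was lost without cTEC replicate 1 (adjusted p = 0.159) or 2 (0.0548), without mTEC replicate 1 (0.125) or 3 (0.113) and without the filter on low counts (0.112).

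Of 14 partners of sodium, chloride and bicarbonate exchange, 10 were lower and 3 higher in lung than in colon (28.3% and 30.4% of all genes; median log2 −1.19). Slc9a2, another sodium-proton exchanger, stood at 112 ± 33.0 CPM in colon and 2.03 ± 0.908 CPM in lung (log2 −5.78 ± 0.45, adjusted p = 5.67e-08). Slc26a9, a chloride transporter of airway and stomach, ran the other way, with 29.9 ± 8.00 CPM in lung and 0.0631 ± 0.0549 CPM in colon (log2 8.70 ± 0.60, adjusted p = 1.65e-08). In mTEC against cTEC 5 were higher and 1 lower (15.2% and 9.45% of all genes), with a median log2 fold change of −0.015. The lower gene was the sodium-bicarbonate cotransporter Slc4a4, at 6.97 ± 1.34 CPM against 53.0 ± 12.8 CPM (adjusted p = 0.000856).

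Among the 14 other carbonic anhydrases, 12 were tested. In mTEC against cTEC 6 were higher and 1, Car14, lower (15.2% and 9.45% of all genes; median log2 1.45). Car8 was 6.60-fold higher (adjusted p = 0.00124) and Car13 4.02-fold higher (adjusted p = 0.00329). Car14 had 6.36 ± 5.87 CPM in cTEC, and its log2 difference of −2.73 passed (adjusted p = 0.0382). With the replicate block it did not (log2 −2.56, adjusted p = 0.0653), nor without cTEC replicate 3 (−1.65, adjusted p = 0.224) or without mTEC replicate 1, 2 or 3 (log2 fold changes of −2.91, −2.45 and −2.83 for Car14, adjusted p = 0.102, 0.118 and 0.0972). In lung against colon 5 were lower and 1 higher (28.3% and 30.4% of all genes; median log2 −2.04), so 6 of 12 were called, against 58.6% of all genes. Car12, a membrane enzyme, fell from 66.7 ± 18.9 CPM to 0.362 ± 0.325 CPM (adjusted p = 2.98e-08; log2 −7.50, and −8.38 without lung replicate 1). Skin, by contrast, held Car12 at 75.6 ± 25.7 CPM.

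Among 20 other amino acid and peptide transporters, 6 were higher and 2 lower in mTEC than in cTEC (15.2% and 9.45% of all genes; median log2 0.70). Slc38a1, a glutamine transporter, was 4.60-fold higher (adjusted p = 0.0155) and Slc36a1, a proton-coupled transporter of lysosomes, 6.34-fold lower (adjusted p = 8.55e-05). The call of Slc38a1 was lost without cTEC replicate 2 (adjusted p = 0.0627) or 3 (0.0654) or mTEC replicate 1 (0.0639). In lung against colon 5 were higher and 9 lower (30.4% and 28.3% of all genes; median log2 −1.49). Slc43a2, a transporter of large neutral amino acids, was 25.7-fold higher in lung (adjusted p = 3.35e-08) and Slc7a5, an exchanger of large neutral amino acids, 8.38-fold lower (adjusted p = 1.37e-07). Of 5 genes of organic acid transport, 4 were tested, and Slc5a8, a sodium-coupled carrier of short-chain fatty acids, stood at 493 ± 67.7 CPM in colon against 0.519 ± 0.457 CPM in lung (log2 −9.89, adjusted p = 7.95e-09, and −10.88 without lung replicate 1).

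For each gene the 3 genes with the most similar profile over the 15 libraries were taken, by Pearson's r of log2 CPM among 12095 genes, as a description in which the tissue differences set most of the value. Slc6a14 went with Slc1a1 (r = 0.992), a glutamate transporter that averaged 83.1 CPM in colon and 164 CPM in lung, then with Eif1ax (0.981) and Sptlc2 (0.980). Slc26a3 went with Slc44a1 (0.982), Cmas and Ms4a8a, and Slc9a3 with Nlrp9b (0.974), Glod5 and Apol10a. The ENaC genes went with Ap2a2 (0.988 for Scnn1a), Ubl3 (0.986 for Scnn1b) and Sec14l1 (0.986 for Scnn1g), and Kctd21 was among the 3 for both Scnn1a and Scnn1b. Cftr went with Sh3bgr and the epithelial factor Elf3 (0.979 each), Car1 with Mgat4c (0.994), Kcnn4 with Aldh1b1 (0.990), and Car4 with Nrap (0.952), the loosest of these first matches.

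Among the 10 genes themselves, 2 blocks stood out in the same measure, again over the 15 libraries. The ENaC subunits correlated at 0.893 to 0.960 with each other. Slc26a3, Slc9a3, Cftr and Car1 correlated at 0.860 to 0.961 with each other. Kcnn4 ran at 0.855 with Car1 and at −0.809 with Scnn1g, and Slc6a14 reached at most 0.696, with Car4.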

How the data were processed

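Cells were sorted by flow cytometry and poly(A) RNA was sequenced, per the labels' protocols. Per the labels, the kit was KAPA RNA Stranded PolyA for thymus and skin, and KAPA RNA HyperPrep PolyA for colon and lung. The submitters' processing notes name bcl2fastq 2.20, STAR 2.5.1b, RSEM 1.2.28 and GRCm38. No annotation release is named in them. The authors deposited read counts per gene, unstranded and per strand. They also deposited RSEM's expected counts, and TPM, which is scaled per transcript length. The sense counts were tested; expected counts, rounded to whole numbers, were an alternative, and TPM served to compare genes. Reads that the tables place outside single genes were left out (24.2% to 46.9% of a library). What overlaps with other genes on the same strand took from the counts of the members was not tested.

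Of 50600 identifiers, 50376 were named through GENCODE M21 on GRCm38. Promoters came from RefSeq. A model of 5 groups over 15 libraries was fitted in edgeR 4.0.16 (R 4.3.3) with TMM factors and filterByExpr, which left 19107 genes. Genes were called by the quasi-likelihood F-test at a Benjamini-Hochberg adjusted p under 0.05 over all genes tested. The procedure was tested on simulated data. An SE is the log2 fold change over the square root of F. A group without reads was set to a floor of 3 reads over its libraries, and where a group had 1 to 3 reads the ratio of summed reads is given with a Clopper-Pearson 95% interval. Intervals and floors cover counting error only, since reads without molecular identifiers are not independent molecules.

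Thymic against extrathymic differences were not tested, because Slc6a14 was chosen on them. The replicate numbers may pair mTEC with cTEC: the deviations of same-numbered pools from their group means correlated at 0.29, 0.278 and 0.156. Each mTEC pool correlated best with the cTEC pool of its number, but such weak values do not establish a pairing. The main fit did not use this possible pairing, and no paired fit of the thymic groups alone was run. The members, the 6 pathway lists and the 15 marker lists were chosen with earlier results of these data known. Genes named besides the members were drawn from up to 2 per direction, list and comparison with the largest change among those called with at least 5 CPM on the higher side. Similar genes were the 3 with the highest correlation among genes of at least 10 CPM in a group. Alternatives were other scalings, filters, counts, models and leaving out each library.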

Additional observations from a re-analysis of the deposited data

How the results depend on the processing

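Over the 10 genes, 347 of 355 values under 9 other settings kept their direction and their side of the threshold, as did 223 of 240 with 1 library left out. The number of members called stayed within 5 to 8 of the 7 in mTEC against cTEC. It was 9 in lung against colon throughout, 9 or 10 in skin against colon, and 6 or 7 in skin against lung. Leaving out 1 library took the genes called in mTEC against cTEC from 4714 to between 2408 (without mTEC replicate 1) and 4207 (without cTEC replicate 1), with 3075 without cTEC replicate 2. The cause was not tested, beyond the smaller number of samples.

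Values that changed sign were those of differences that did not pass. Slc6a14 in lung against colon ran from −0.053 without colon replicate 2 to 0.29. Slc26a3 in skin against lung ran from −5.20 without skin replicate 3, which held every skin read, to 1.27. Slc9a3 in skin against lung was 0.87 with unstranded counts and 0.53 with DESeq2, with at most 1 sense read in the 2 groups together. Unstranded counts also drew Slc9a3 closer between groups, to log2 3.60 in mTEC against cTEC, −6.87 in lung against colon and −6.00 in skin against colon. A fit of only the groups compared tested 8 of the 10 genes in mTEC against cTEC, without Slc26a3 and Slc9a3, and 7 in skin against lung. Of the values of pathway genes, 742 of 755 kept their call under other settings and 465 of 504 with 1 library left out, and none changed sign.

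The replicate block fitted an effect of the replicate number that was shared by all 5 groups. It was thus not a paired fit of the thymic groups alone. With the block the members called were again 7, 9, 10 and 6, and the genes called 4431, 10989, 10856 and 11265. The block changed no call among the members. Of the pathway genes picked in mTEC against cTEC it ended the calls of Car14, Slc4a7 and Slc16a3 (adjusted p = 0.0653, 0.0509 and 0.056). In mTEC against cTEC, where the numbers may mark pairs, the block took Cftr from log2 2.98 to 3.08. In the 3 other comparisons the correlations of same-numbered pools were −0.058 to 0.046, so the numbers are shared labels only. Depth limits Slc26a3, Slc9a3 and Car1 outside colon.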
